A study of Homo sapiens with 6 samples.

Results

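The 9 genes described here encode the enzymes that make serine from a glycolytic intermediate and pass its carbon into the folate cycle: PHGDH, PSAT1, PSPH, SHMT1, SHMT2, MTHFD1, MTHFD2, MTHFD1L and ALDH1L2. They were chosen by name as the members of this pathway, with earlier results of these data known. Each was found once among the 58440 gene identifiers of the count table. The series sequenced total RNA of K562, a cell line long established from chronic myeloid leukaemia, in 3 libraries of cells over-expressing IRAIN and 3 control libraries, to look into drug resistance. IRAIN, a long noncoding RNA, comes from the IGF1R locus and runs antisense to that receptor gene. The controls are wild type in the labels but vector in the count table, so whether they carry a construct cannot be told, and they are named by column number. No drug, time or promoter of the construct is given in the labels, and nothing says whether the over-expressing cells were 1 clone or a pool.

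Serine synthesis starts from 3-phosphoglycerate of glycolysis, which PHGDH oxidises, PSAT1 transaminates with glutamate as the nitrogen donor, and PSPH dephosphorylates to serine. SHMT2 in mitochondria and SHMT1 in the cytosol then split serine into glycine and a one-carbon unit carried by tetrahydrofolate. In mitochondria MTHFD2 oxidises that unit and MTHFD1L releases it as formate, while ALDH1L2 burns it to carbon dioxide with gain of NADPH. In the cytosol MTHFD1 takes formate up again for purine and thymidylate synthesis, and the cycle can also run in the other direction. The transcription factor ATF4 is known to induce the serine enzymes and the mitochondrial folate enzymes when amino acids are short or cells are stressed, and proliferating leukaemia cells commonly express the pathway at a high level.

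Expression of the 3 serine enzymes and the 4 mitochondrial folate enzymes was higher in the over-expression libraries, whereas the 2 cytosolic enzymes did not pass the test. PHGDH rose most, 2.1-fold (95% interval 1.99 to 2.22), and ALDH1L2 1.66-fold (1.56 to 1.76). PSAT1, PSPH, SHMT2, MTHFD2 and MTHFD1L rose by 1.27 to 1.36-fold. SHMT1 and MTHFD1 stood at 0.948-fold (0.864 to 1.04) and 0.97-fold (0.919 to 1.02) of the control. In all, 7 of 9 genes rose and 0 fell by edgeR's quasi-likelihood test at an adjusted p of 0.05 over the 18380 genes tested. At an unadjusted p of 0.05, and by DESeq2 and by limma-voom, the count that fell was 0 as well. Among all genes tested, 20.3% were called higher and 18.9% lower, 39.3% in either direction. The CPM ranges of the groups (CPM, counts scaled by library size to a common total) did not overlap for the same 7 genes, all higher, as was so for 47.5% of all genes tested, 24.3% higher and 23.2% lower. The median log2 fold change was 0.40 over the 9 genes and -0.001 over all genes tested. These are bulk libraries, so a change in the RNA of each cell and a change in the make-up of the culture cannot be told apart.

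The libraries held 11558983 to 13303139 counts in genes. Among markers of the line, 11 of 12 K562 and erythroid genes had a mean of 5 CPM or more with over-expression and 10 of 12 in the controls, and their summed level was 1610 to 1660 CPM in the over-expression libraries and 1760 to 1800 CPM in the controls. The T cell markers summed to 1.22 to 1.96 CPM with over-expression and 2.43 to 2.9 CPM in the controls, and the endothelial genes CDH5 and VWF were at 0 in all 6 libraries, while the endothelial sum, all of it PECAM1, was 9.35 to 11.2 CPM against 17.6 to 22.7 CPM. B cell markers summed to 6.33 to 6.92 against 4.94 to 6.55 CPM, monocyte markers to 0.865 to 1.76 against 1.54 to 1.99 CPM, epithelial markers to 35.1 to 40.6 against 35.1 to 39.3 CPM and fibroblast markers to 34.4 to 39.7 against 40.3 to 40.8 CPM. ALB, a liver marker, stood at 0.076 to 0.0879 against 0.834 to 1.82 CPM. IRAIN itself was counted 97, 94 and 106 times with over-expression against 0, 0 and 1 time in control columns 1, 2 and 3, and IGF1R stood at 48.7 ± 1.2 against 30.1 ± 0.17 CPM (SD, n = 3 each). The mitochondrial chromosome took 2.95 to 3.33% of counts with over-expression and 2.46 to 2.78% without, and the nuclear RNA MALAT1 took 2.57 to 2.62% against 1.94 to 1.99%. The part of these markers and shares in the changes below was not tested. Whether replicate libraries stem from different cultures is not stated, so p-values measure only the spread between these libraries, which may be technical.

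The promoters of members that moved, and of the cytosolic pair that did not pass the test, are shown because the 7 risen genes moved in the same direction while lying at separate loci. RefSeq promoter windows (GRCh38.p14, 250 bases before to 50 after the start) were found for 6 of the 9 genes, with several starts for MTHFD1L. These RefSeq starts can differ from the annotated gene starts given below. For PHGDH the window was chr1:119711684-119711983, while the annotated gene begins at 119648411. PSPH, SHMT2 and ALDH1L2 had no window. In the stretches below, written 5′ to 3′ along the gene, capitals mark matches to 3 motifs searched on both strands. These were TGATGNAA, the core of the element that ATF4 is known to bind with C/EBP proteins, CACGTG, the E-box that MYC is known to bind, and CCAAT, the box of the factor NF-Y, added after the sequences were seen. Another 4 motifs were searched first and are not in capitals. The stretches cover chr9:78296975-78297124 for PSAT1, chr2:74198415-74198561 for MTHFD2, chr6:150866183-150866331 and chr6:150866346-150866375 for MTHFD1L, chr1:119711851-119711880 for PHGDH and chr14:64388326-64388355 for MTHFD1, all on the plus strand, and chr17:18363564-18363713 on the minus strand for SHMT1.
PSAT1: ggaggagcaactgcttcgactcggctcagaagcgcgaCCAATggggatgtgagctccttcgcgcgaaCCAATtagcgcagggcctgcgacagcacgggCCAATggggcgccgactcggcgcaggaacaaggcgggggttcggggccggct
MTHFD2: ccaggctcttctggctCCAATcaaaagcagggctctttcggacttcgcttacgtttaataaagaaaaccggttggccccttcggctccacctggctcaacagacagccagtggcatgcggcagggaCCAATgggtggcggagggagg
MTHFD1L, before the start: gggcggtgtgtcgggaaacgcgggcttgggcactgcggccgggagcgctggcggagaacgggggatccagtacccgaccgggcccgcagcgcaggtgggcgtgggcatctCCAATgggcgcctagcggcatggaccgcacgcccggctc
MTHFD1L, after the start: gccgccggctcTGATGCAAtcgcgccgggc
PHGDH: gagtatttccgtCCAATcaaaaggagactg
MTHFD1: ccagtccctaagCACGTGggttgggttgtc
SHMT1: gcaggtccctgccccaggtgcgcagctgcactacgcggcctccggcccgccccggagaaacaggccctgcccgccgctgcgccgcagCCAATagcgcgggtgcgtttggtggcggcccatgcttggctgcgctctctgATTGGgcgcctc

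Of these genes MTHFD1L held TGATGNAA, as TGATGCAA at bases 25 to 32 after its most upstream RefSeq start, and 3.62% of all 35116 windows held that motif. CACGTG was found in MTHFD1, at 15 bases before the start, and in MTHFD1L, where it spans the most upstream RefSeq start. Of all windows, 7.26% held it. CCAAT was found in the windows of all 6 genes, with 3 copies in PSAT1 at 113, 83 and 52 bases before the start, and in 34.6% of all windows. The cytosolic genes SHMT1 and MTHFD1 carried CCAAT as the risen ones did. Of the motifs searched first, TGACGNAA was in no member's window (1.66% of all windows), and ATTGCATC (0.498%) and TTGCATCA (0.866%) were in that of MTHFD1L. TTGCATCA is the reverse strand of its TGATGCAA, and ATTGCATC that of the overlapping GATGCAAT, so both match at that same site. TGANNNNGC was in 5 of the 6 genes, PSAT1 being without it, and in 41.8% of all windows. The motifs shown were thus selected among several. A match describes the letters in the window and is no measure of binding.

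PHGDH (ENSG00000092621.12, GRCh38 chromosome 1, 119648411 to 119744226, plus strand) catalyses the first and committed step of serine synthesis. It stood at 210, 190 and 196 CPM in over-expression replicates 1, 2 and 3 and at 92.3, 94.9 and 95.6 CPM in control columns 1, 2 and 3. The lowest over-expression library was thus well above the highest control. Its level rose by 1.07 ± 0.039 on the log2 scale (SE; edgeR adjusted p = 7.4e-33), and 97.3% of all genes tested had a smaller one. PHGDH was the sole member outside the range that holds the 5th to 95th percentile of all genes tested, which ran from -0.60 to 0.76 on the log2 scale.

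PSAT1 (ENSG00000135069.13, chromosome 9, 78297143 to 78330093, plus strand), the aminotransferase of the second step, stood at 368, 341 and 343 CPM against 265, 267 and 265 CPM. Its controls were nearly alike (266 ± 1.1 CPM, SD, n = 3), and each over-expression library lay above them. It rose by 0.40 ± 0.031 on the log2 scale (SE; edgeR adjusted p = 3.1e-17). PSPH (ENSG00000146733.13, chromosome 7, 56011051 to 56051604, minus strand), the phosphatase of the last step, stood at 58.9, 54.6 and 62.1 CPM against 46.5, 42.9 and 46.0 CPM. It was the least abundant of the 3 and the groups did not overlap. It rose by 0.38 ± 0.056 on the log2 scale (SE; edgeR adjusted p = 1.1e-07). PSPHP1, an unprocessed pseudogene of PSPH, held 104 reads with over-expression and 77 without, summed over 3 libraries each, 4.73% of the PSPH reads in all, and how reads of the copies were divided was not tested.

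**Figure D1:**
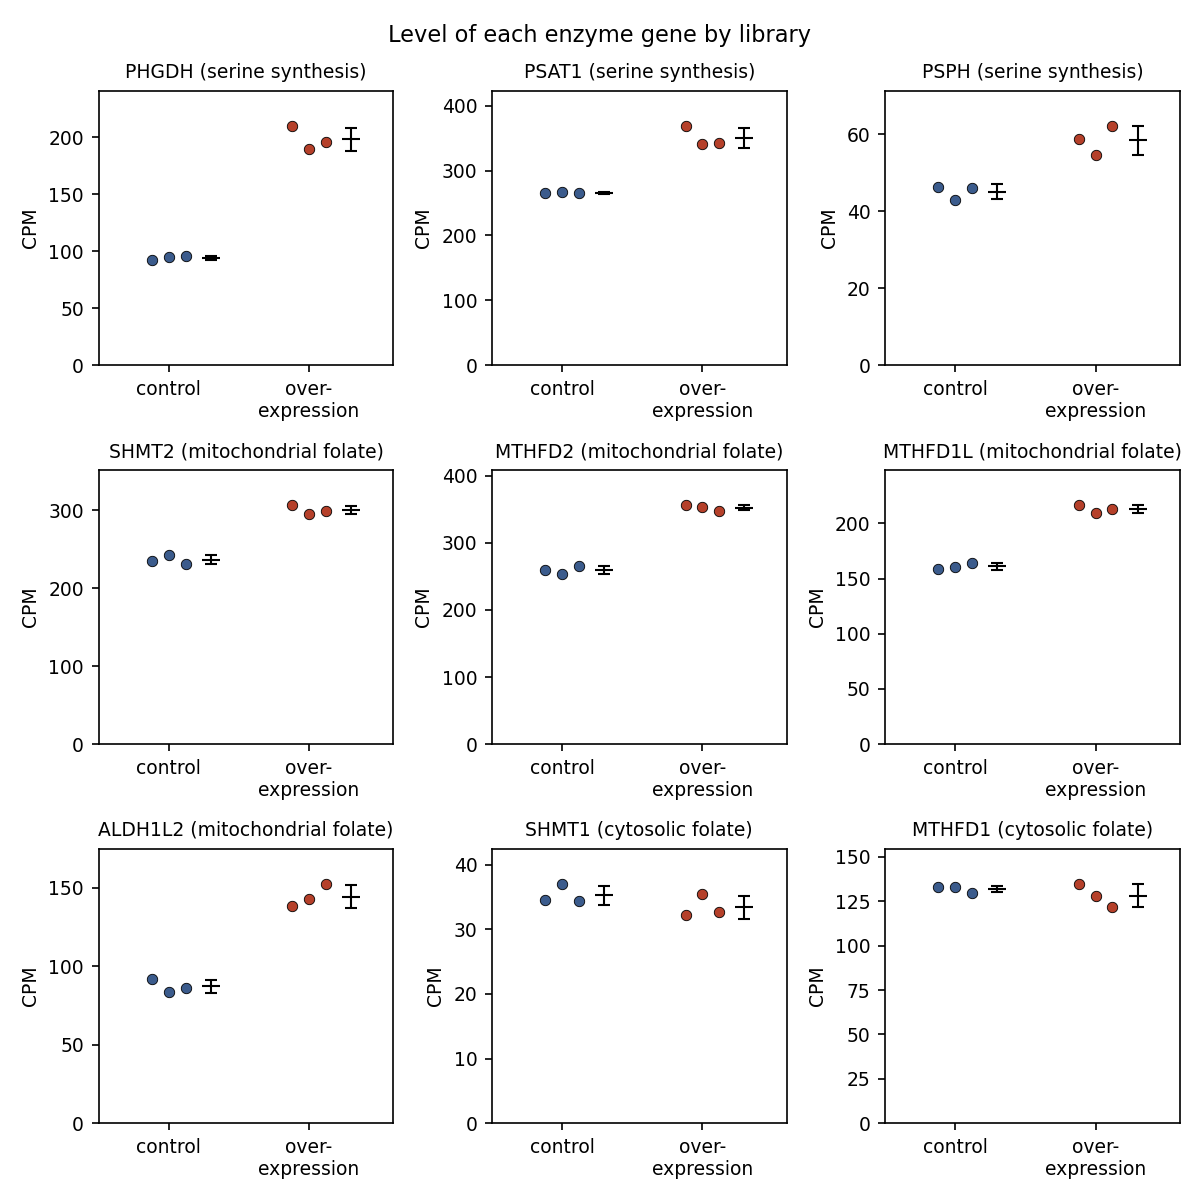
Level in CPM (vertical axis, from 0) of the 9 enzyme genes in the 3 control and the 3 over-expression libraries, 1 point per library, with mean ± SD beside the points. The groups are separate in the 7 panels of the serine and mitochondrial enzymes, and overlap for SHMT1 and MTHFD1.

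SHMT2 (ENSG00000182199.10, chromosome 12, 57229327 to 57234935, plus strand), the mitochondrial enzyme that splits serine, stood at 306, 296 and 300 CPM with over-expression and at 235, 243 and 231 CPM in the controls (log2 fold change 0.35 ± 0.031, SE; edgeR adjusted p = 8.9e-15). MTHFD2 (ENSG00000065911.11, chromosome 2, 74198562 to 74217565, plus strand), the dehydrogenase and cyclohydrolase, is low in most adult tissues and high in dividing and tumour cells. It stood at 356, 353 and 348 CPM against 260, 253 and 266 CPM (0.44 ± 0.03, SE; edgeR adjusted p = 1.5e-19). In both genes the 3 over-expression libraries lay above the controls with a gap larger than the spread within either group.

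MTHFD1L (ENSG00000120254.15, chromosome 6, 150865549 to 151101887, plus strand) releases the carbon unit as formate for export to the cytosol. It stood at 216, 209 and 213 CPM against 158, 161 and 164 CPM (log2 fold change 0.40 ± 0.034, SE; edgeR adjusted p = 8.4e-16). ALDH1L2 (ENSG00000136010.13, chromosome 12, 105019784 to 105084577, minus strand), which oxidises the unit to carbon dioxide, stood at 138, 143 and 152 CPM against 91.8, 83.6 and 86.2 CPM. Its rise of 0.73 ± 0.042 on the log2 scale (SE; edgeR adjusted p = 7.6e-23) was the second largest of the 9. ALDH1L1, its cytosolic counterpart, had 0.0262 ± 0.045 CPM with over-expression and 0.0548 ± 0.047 CPM in the controls (SD, n = 3 each), too few counts to test, so no ratio of that pair was formed.

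Neither cytosolic enzyme passed the test. SHMT1 (ENSG00000176974.19, chromosome 17, 18327860 to 18363563, minus strand) stood at 32.2, 35.5 and 32.6 CPM with over-expression and at 34.5, 36.9 and 34.3 CPM in the controls, and the groups overlapped. The log2 value of -0.08 ± 0.067 (SE; edgeR adjusted p = 0.38) has a 95% interval from -0.21 to 0.06. MTHFD1 (ENSG00000100714.15, chromosome 14, 64388031 to 64463457, plus strand), the trifunctional enzyme that recaptures formate, stood at 135, 128 and 122 CPM against 133, 133 and 130 CPM. The groups again overlapped, and the log2 value of -0.04 ± 0.039 (SE; edgeR adjusted p = 0.39) has an interval from -0.12 to 0.03. Both intervals end below the lowest bound of any risen member (0.26, PSPH). SHMT1 had the fewest reads of the 9, between 366 and 456 per library. SHMT1P1, a processed pseudogene, held 88 and 76 reads over the groups, 6.48% of the SHMT1 reads.

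**Figure D2:**
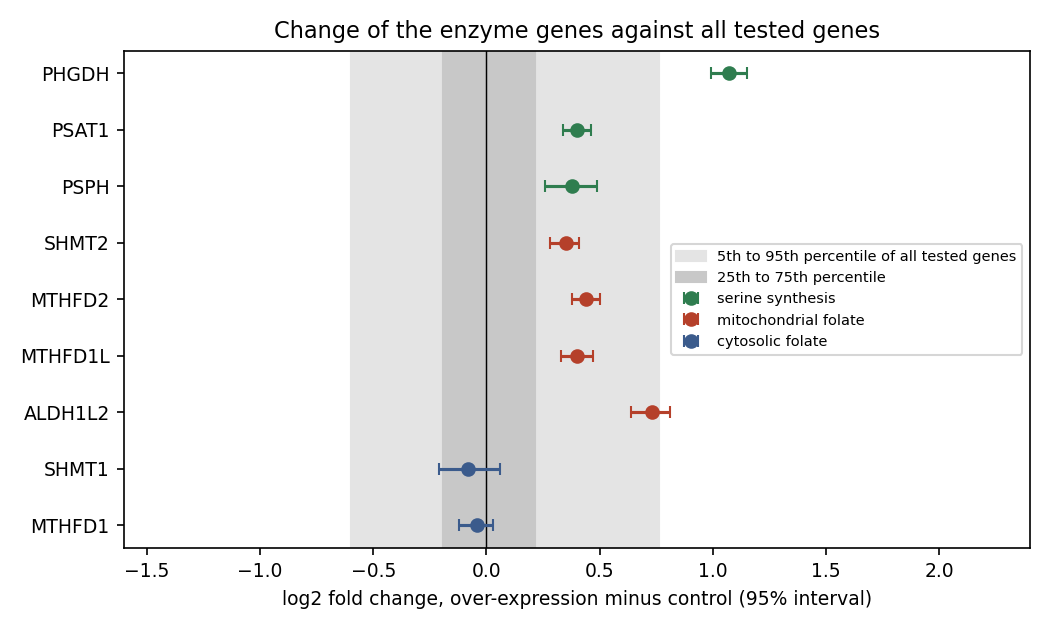
Log2 fold change (horizontal axis, over-expression minus control) of each enzyme gene with its 95% interval, over bands for the 25th to 75th and the 5th to 95th percentile of all 18380 genes tested. The 7 serine and mitochondrial enzymes sit to the right of the inner band, and the 2 cytosolic enzymes sit inside it.

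Within each library, the mitochondrial enzyme was set against its cytosolic counterpart as a ratio of CPM per kb of annotated exons. The ratio of SHMT2 to SHMT1 was 8.86, 7.76 and 8.55 with over-expression and 6.33, 6.11 and 6.28 without. The ratio of MTHFD2 to MTHFD1 was 4.1, 4.27 and 4.44 against 3.03, 2.96 and 3.17, and that of MTHFD1L to MTHFD1 was 2.9, 2.94 and 3.16 against 2.15, 2.18 and 2.28. For each of the 3 ratios every over-expression library lay above every control, with means 1.34, 1.4 and 1.36-fold higher. The exact two-sided permutation p was 0.1 in each, the smallest that 3 against 3 can give, and remained 0.1 after Benjamini-Hochberg adjustment over the 3 ratios. The last pair shares MTHFD1 with the one before, so these are not independent. A further ratio, chosen after the values were seen and not tested, set MTHFD2 against MTHFD2L, its mitochondrial isozyme: 8.5 ± 0.39 against 5.6 ± 0.065 (SD, n = 3 each). MTHFD2L itself stood at -0.16 ± 0.07 on the log2 scale (SE) and missed the threshold (edgeR adjusted p = 0.057).

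**Figure D3:**
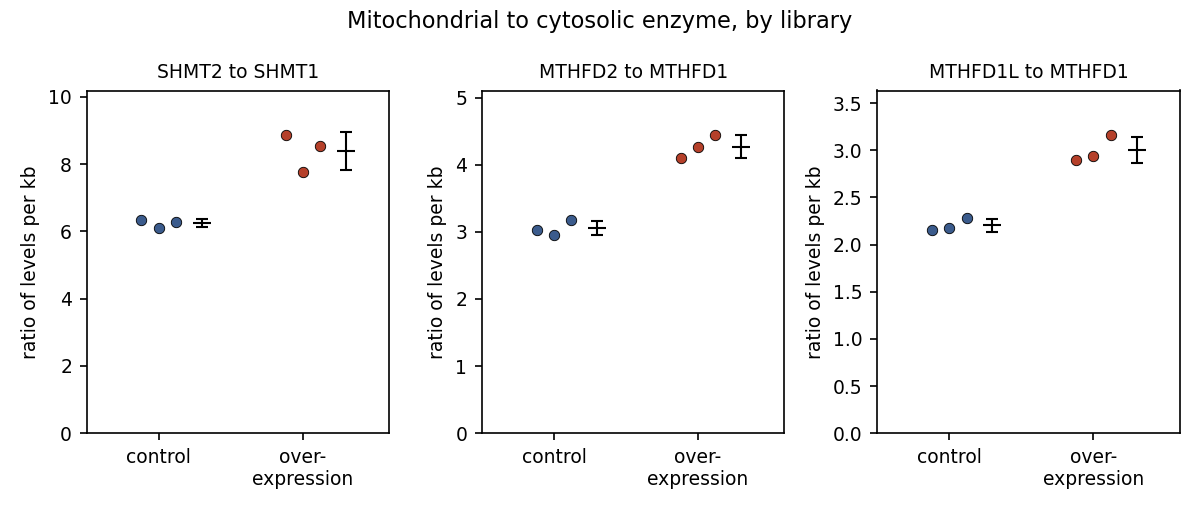
Ratio of the level per kb of a mitochondrial folate enzyme to that of its cytosolic counterpart (vertical axis, from 0), 1 point per library with mean ± SD, for SHMT2 to SHMT1, MTHFD2 to MTHFD1 and MTHFD1L to MTHFD1. In each panel the over-expression libraries lie above the controls, for example 7.76 to 8.86 against 6.11 to 6.33 for SHMT2 to SHMT1.

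Ordered by level per kb in the controls, PSAT1 came first at 121 CPM per kb, followed by SHMT2 (78.0), MTHFD2 (58.3), MTHFD1L (42.1), PHGDH (35.4), PSPH (20.7), MTHFD1 (19.1), SHMT1 (12.5) and ALDH1L2 (11.6). No neighbours in that order overlapped over the 3 control libraries, though SHMT1 at 12.2 to 13.1 and ALDH1L2 at 11.1 to 12.2 CPM per kb nearly met. With over-expression PHGDH stood in place 4 at 74.5 ± 3.8 CPM per kb, above MTHFD1L at 55.6 ± 0.97 and overlapping MTHFD2 at 79.0 ± 0.91 (SD, n = 3 each). ALDH1L2, last in the controls, stood in place 7 at 19.1 ± 0.96 CPM per kb and overlapped MTHFD1 at 18.6 ± 0.95 (SD, n = 3 each). Summed as CPM, the 3 serine enzymes were 49.9% higher and the 4 mitochondrial enzymes 35.6% higher, at 607 ± 26 against 405 ± 1.6 CPM and at 1009 ± 8.5 against 744 ± 3.7 CPM (SD, n = 3 each). The cytosolic pair summed to 162 ± 6.6 against 167 ± 2.9 CPM.

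As shares of the 9 genes' summed level per kb, PHGDH took 13.7% with over-expression and 8.87% in the controls, and ALDH1L2 took 3.51% and 2.89%. PSAT1 took 29.4% and 30.4%, PSPH 4.93% and 5.19%, SHMT2 18.2% and 19.6%, MTHFD2 14.5% and 14.6%, and MTHFD1L 10.2% and 10.5%. SHMT1 took 2.18% and 3.13%, and MTHFD1 3.4% and 4.79%. Summed as CPM, without division by length, the 9 genes were 35.1% higher with over-expression. PHGDH had the largest gain in share of the 9, and its ratio to PSAT1 was 0.465 ± 0.0062 against 0.292 ± 0.0048 (SD, n = 3 each; ratio chosen after the values were seen and not tested).

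The deposited counts ignore strand, which bears on the levels of genes that share exons with a gene on the other strand. In a second deposited table of 1 library with counts by strand, MTHFD2 had 7427 reads on its own strand, while the strand-ignored count was 4491. MTHFD2 shares 33.2% of its annotated exon bases with other genes, SLC4A5 among them. MTHFD1 had 2062 reads on its strand against a count of 1632, and shares 11% of its exon bases. In that library the own-strand reads were thus 1.65 and 1.26 times the count used here, so the levels of both may be understated against the other members. For the other 7 genes the ratio of own-strand to strand-ignored reads was 0.881 to 0.992, and reads on the opposite strand made up 4.96 to 12% of the strand-assigned reads over all 9. Pseudogene copies of PSAT1, MTHFD1 and MTHFD2 held at most 0.209% of the reads of their parent gene.

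The genes around the members are set against the 20.3% of all genes tested that rose and the 18.9% that fell. Within 1 Mb of PHGDH, 4 of 14 tested genes rose and 1 fell, with a median log2 fold change of 0.051. Around ALDH1L2, 4 of 14 rose and 3 fell, and around PSAT1 0 of 3 rose and 1 fell. Around PSPH 3 of 11 rose and 2 fell, around MTHFD1L 3 of 13 and 1, around SHMT1 5 of 38 and 4, and around MTHFD1 1 of 16 and 1. Around SHMT2 25 of 62 rose and 11 fell, with a median of 0.201, which is below the SHMT2 value of 0.35. Around MTHFD2 the median was -0.098, with 7 of 44 risen and 13 fallen, while MTHFD2 itself rose.

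The genes with the pattern most like PHGDH over the 6 libraries were AKNA, FUT1, FAM83A, SPEG and SCG3, none of which is known as an enzyme of serine or folate metabolism. Likeness was the root-mean-square difference in log2 CPM after subtracting each gene's mean, which was 0.035 for AKNA and 0.05 for SPEG and SCG3. AKNA stood at 241 ± 10 against 119 ± 1.5 CPM (SD, n = 3 each). This describes 6 libraries in 2 groups. The log2 fold changes of the 5 genes were 1.02 to 1.11, beside 1.07 for PHGDH.

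Of 13 genes of serine and glycine transport and use, 4 rose and 4 fell, against 20.3% and 18.9% of all genes tested, and their median log2 fold change was -0.02. SLC6A9, a glycine transporter (GLYT1) also important in red cell precursors, rose from 22.2 ± 0.83 to 47.2 ± 2.9 CPM (SD, n = 3 each; log2 fold change 1.09 ± 0.069, SE). SLC1A4, a carrier of serine and other small neutral amino acids, rose by 0.47 ± 0.041. SPTLC2, a subunit of the enzyme that puts serine into sphingolipids, fell by 0.42 ± 0.039 and the amino acid carrier SLC38A2 fell by 0.16 ± 0.026, all on the log2 scale with SE. Of 5 genes of transsulfuration and glutathione synthesis, 3 rose and 1 fell. CTH, which makes cysteine from the sulfur of methionine and the carbon of serine, rose by 0.58 ± 0.047. GCLM, the modifier subunit of the first enzyme of glutathione synthesis, rose by 0.28 ± 0.041. The catalytic subunit GCLC changed by -0.23 ± 0.087 and lost its call without over-expression replicate 1 (adjusted p = 0.13) or control column 2 (0.17), which left 0 fallen. GSS, glutathione synthetase, named here after its calls were seen, passed at 0.11 (adjusted p = 0.035) and lost its call in 4 of the 6 fits without 1 library, which left 2 risen.

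Of 6 tested genes of folate transport and storage, 2 rose and 3 fell, against 20.3% and 18.9% of all genes tested. SLC19A1, the reduced folate carrier that also takes up methotrexate, fell from 89.1 ± 2.2 to 55.2 ± 3.1 CPM (SD, n = 3 each; log2 fold change -0.69 ± 0.048, SE; edgeR adjusted p = 6e-19). In the library with strand counts, 47.3% of its strand-assigned reads lay on the opposite strand. SLC19A1 had 739 reads on its own strand and 662 on the other, while the strand-ignored count was 748. The ratio of own-strand to strand-ignored reads was 0.988, so in that library the count lay close to the own-strand reads. No strand counts are given for the other libraries. FPGS, which adds glutamates that keep folate in the cell, fell by 0.39 ± 0.045. SLC46A1, the proton-coupled folate carrier, rose by 1.43 ± 0.2 from a low counted level (2.09 ± 0.22 CPM; SD, n = 3). It shares 61.5% of its exon bases with other genes. In the library with strand counts, SLC46A1 had 261 reads on its own strand, while the strand-ignored count was 59. Its level may thus be understated. FOLR1, a folate receptor, stood at 1.49 ± 0.77 against 0.766 ± 0.32 CPM (SD, n = 3 each) and lost its call without over-expression replicate 1 (adjusted p = 0.48), control column 1 (0.17) or control column 3 (0.18), which left 1 risen. SLC25A32, the carrier of folate into mitochondria and named after its value was seen, passed at an adjusted p of 0.041 (-0.14 ± 0.057), a call lost in each of the 6 fits without 1 library, and 80.8% of its exon bases are shared with other genes.

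Of the other folate enzymes, 2 of 8 tested rose by edgeR, near the 20.3% of all genes tested that were called higher. DESeq2 called 1 higher and limma-voom 2. The count that fell was 0 by edgeR, by DESeq2 and by limma-voom, and 1 at an unadjusted edgeR p of 0.05. FTCD, which links histidine breakdown to folate, stood at 6.68 ± 0.64 CPM, up from 3.49 ± 0.35 CPM (SD, n = 3 each). DHFR2, a mitochondrial dihydrofolate reductase, rose by 0.48 ± 0.14 on the log2 scale (SE). Without over-expression replicate 2 DHFR2 lost its call (adjusted p = 0.067), which left 1 risen. Without over-expression replicate 1, MTHFD2L was called lower (0.037), which made 1 fallen. In the glycine cleavage system, 2 of 4 genes had enough counts to test, and 0 rose and 0 fell by edgeR (0 and 1 at an unadjusted p of 0.05, 0 and 0 by DESeq2 and by limma-voom). Its decarboxylase gene GLDC had 1, 1 and 0 counts in over-expression replicates 1, 2 and 3 and 0 in each control. GCSH was called lower without over-expression replicate 2 (adjusted p = 0.019) or control column 2 (0.032).

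Of 13 genes of purine synthesis, 7 fell and 1 rose, against 18.9% and 20.3% of all genes tested, and their median log2 fold change was -0.15. IMPDH1, on the branch to guanine nucleotides, fell by 0.53 ± 0.043, and GART, which uses formyl-folate in purine ring assembly, fell by 0.27 ± 0.027. ATIC, the other enzyme of the list that takes a formyl unit, named for that reason, stood at 0.05 and did not pass the test (adjusted p = 0.18). ADSS1 rose by 0.28 ± 0.087. In the methionine cycle 0 of 7 tested genes rose, as at an unadjusted p of 0.05, by DESeq2 and by limma-voom, and 2 fell. They were MAT2A, which makes S-adenosylmethionine (-0.22 ± 0.029), and its partner MAT2B (-0.17 ± 0.055). MAT2B lost its call without over-expression replicate 2 (adjusted p = 0.062) or control column 2 (0.057), which left 1 fallen.

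Of 15 genes of glycolysis, taken from glucose uptake to lactate and so on both sides of the branch to serine, 9 fell and 0 rose by edgeR, against 18.9% and 20.3% of all genes tested. DESeq2 called 9 lower and limma-voom 11, and both called 0 higher (1 at an unadjusted edgeR p of 0.05). The list's median log2 fold change was -0.13. HK2, of the first step of glucose use, fell by 0.60 ± 0.043, and LDHA, which makes lactate below the branch, by 0.32 ± 0.028. Without over-expression replicate 1, SLC2A1 was called higher (adjusted p = 0.044), and without replicate 3, GPI was (0.042), each making 1 risen. Of 10 genes of glutamate and proline metabolism, 2 rose and 5 fell. Glutamine synthetase (GLUL) fell from 2222 ± 21 to 1388 ± 38 CPM (SD, n = 3 each) and ALDH18A1, of proline synthesis, fell by 0.31 ± 0.04. GPT2, a mitochondrial alanine aminotransferase, rose by 0.30 ± 0.064, and PYCR1, of proline synthesis, passed at 0.09 ± 0.033 (adjusted p = 0.032). PYCR1 lost its call without over-expression replicate 2 (0.051) or 3 (0.069) and without control column 1 (0.16) or 3 (0.092). In the fits without replicate 3 and without control column 3 this left 1 risen.

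**Figure D4:**
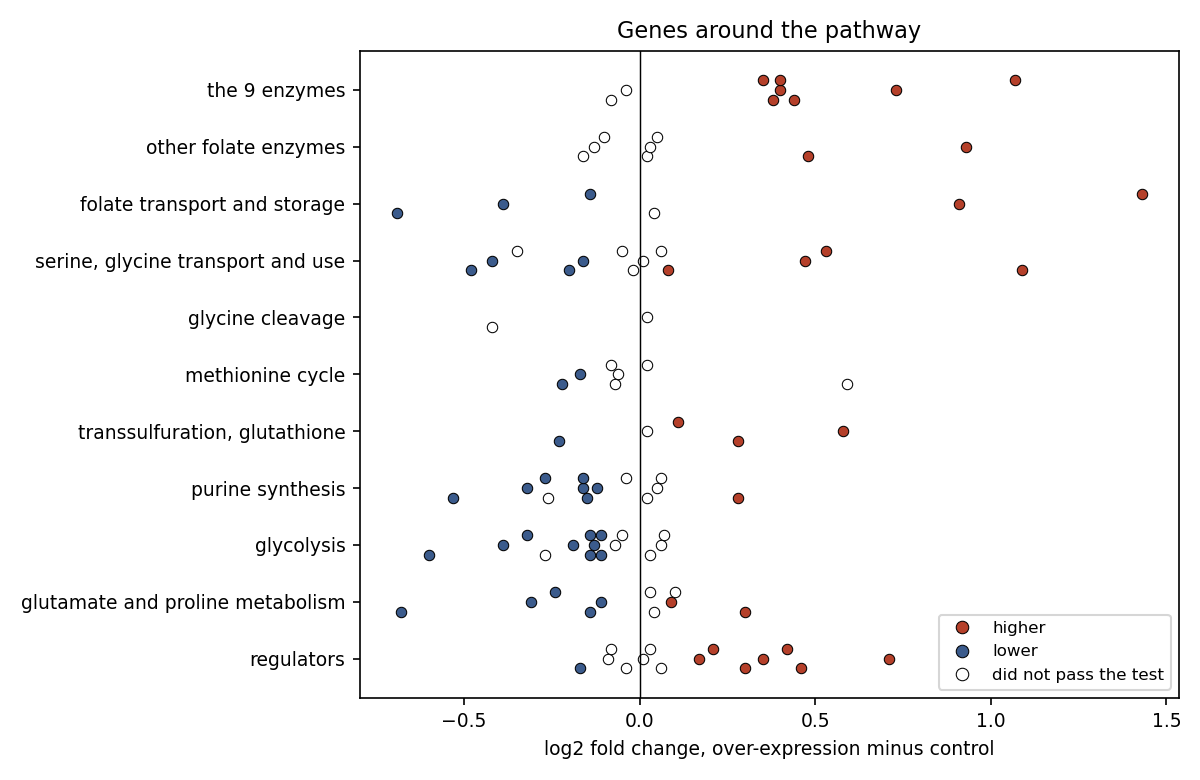
Log2 fold change (horizontal axis, over-expression minus control) of the 9 enzymes and of each tested gene of 10 related lists, coloured where the gene passed edgeR's test at an adjusted p of 0.05. Of the 9 enzymes 7 are coloured higher, whereas in glycolysis 9 of 15 and in purine synthesis 7 of 13 are coloured lower.

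Of 14 genes listed around the known control of the pathway, 7 rose and 1 fell, against 20.3% and 18.9% of all genes tested. The 7 include TRIB3 and DDIT3, which are induced by ATF4. ATF4 rose from 358 ± 1.7 to 412 ± 3.5 CPM (SD, n = 3 each; log2 fold change 0.21 ± 0.028, SE), and its partners CEBPB and CEBPG by 0.46 ± 0.047 and 0.42 ± 0.038. The ATF4-induced genes TRIB3 and DDIT3 rose by 0.71 ± 0.034 and 0.30 ± 0.07, the latter sharing 39.6% of its exon bases with other genes. Among the 4 kinases that raise ATF4 translation, EIF2AK1, the heme-regulated one, rose by 0.35 ± 0.031, while EIF2AK2 (0.03 ± 0.043), EIF2AK3 (0.06 ± 0.08) and EIF2AK4 (-0.04 ± 0.037) did not pass the test. MYC rose by 0.17 ± 0.031. NFE2L2 (-0.09 ± 0.037), EHMT2 (-0.08 ± 0.043) and MTOR (0.01 ± 0.031) did not pass it. KDM4C passed at -0.17 ± 0.058 and lost its call without over-expression replicate 1 (adjusted p = 0.061), control column 1 (0.19) or control column 2 (0.066), and NFE2L2 was called lower without control column 2 (0.046). Without over-expression replicate 1 or control column 1 this left 0 fallen. These are transcript levels, and ATF4 is controlled largely at translation. The asparagine synthetase gene ASNS, a classical ATF4 target named here after its value was seen, stood at 29.1 ± 1.0 against 28.4 ± 0.98 CPM (SD, n = 3 each; log2 fold change 0.03 ± 0.071, SE; edgeR adjusted p = 0.75). It shares 44.6% of its exon bases with other genes.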

How the data were processed

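Total RNA of 6 K562 libraries was sequenced. Libraries were made with a TruSeq RNA kit, per the labels' protocols, and reads were aligned with STAR to GRCh38 (hg38), per the submitters' processing notes; the sources used here give no version of either. Raw whole-number counts per gene were deposited by the authors for 58440 identifiers. A second deposited table holds counts of 1 unnamed library by strand; ignoring strand, it is identical to over-expression replicate 2 in all 58440 rows, and 15.1% of its strand-assigned counts lay on the minor strand. Control columns were assigned to the group by name, not by number.

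Library totals were 11558983 to 13303139 counts. Pairs of libraries within a group differed by more than counting noise (chi-square per degree of freedom 1.36 to 2.31), so no library was a copy of another. They count as replicates because the labels give them as separate samples. edgeR 4.0.16 (R 4.3.3) ran its quasi-likelihood F-test, two-sided, with TMM scaling, filterByExpr and Benjamini-Hochberg adjustment at 0.05 over 18380 genes; all 9 members passed the filter. The SE is the log2 fold change divided by the square root of F. CPM uses TMM-scaled totals. Alternatives were RLE scaling, no filter, DESeq2 1.42.0, limma-voom 3.58.1, a GC content and length correction (mgcv 1.9.3), leaving out each library and, chosen after seeing the data, a replicate block by column number.

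Annotation is GENCODE 29 (58275 identifiers matched); kb are exon bases of its basic transcripts. Named genes are the members, at most 2 higher and 2 lower calls with the lowest p in each related list, all listed regulators, and the 5 genes nearest PHGDH with at least 5 CPM (log2 with 0.5 added); genes outside this rule are SLC25A32, GSS, ATIC, MTHFD2L, GCSH, GLDC, SLC2A1, GPI and ASNS, chosen after their values were seen. Members and lists were chosen with earlier results of these data known.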

Additional observations from a re-analysis of the deposited data

How the results depend on the processing

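The 7 risen members stayed higher and past the threshold, and SHMT1 and MTHFD1 stayed under it, in each of the 12 alternatives run (RLE scaling, no filter, DESeq2, limma-voom, GC and length correction, replicate block and 6 fits without 1 library). Over the fits without 1 library, the log2 fold change was 1.03 to 1.10 for PHGDH, 0.37 to 0.42 for PSAT1, 0.33 to 0.43 for PSPH, 0.33 to 0.36 for SHMT2, 0.42 to 0.45 for MTHFD2, 0.39 to 0.41 for MTHFD1L, 0.69 to 0.77 for ALDH1L2, -0.12 to -0.04 for SHMT1 and -0.08 to -0.0044 for MTHFD1. MTHFD1 came nearest to a call after the GC and length correction (edgeR adjusted p = 0.053; 0.053 to 0.95 over all alternatives). The ratios differed by 0.38 to 0.48 (SHMT2 to SHMT1), 0.45 to 0.51 (MTHFD2 to MTHFD1) and 0.41 to 0.47 (MTHFD1L to MTHFD1) on the log2 scale. A replicate block by the number in the column names, added after seeing the data, called 3661 genes higher and 3416 lower. Of the folate transport and storage genes it called 1 higher and 2 lower. The counts of the members and of the other lists stayed equal to those without the block. The labels do not tie the control numbers to samples. Deviations of same-numbered libraries correlated at -0.04, -0.01 and -0.02, and those of other pairs at -0.02 to 0.04. Such values show no shared effect of the number and cannot tell whether the libraries were paired.

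Over all genes DESeq2 called 2465 higher and 2348 lower, against 3734 and 3483 by edgeR, and the fits without 1 library called 3291 to 3550 and 3043 to 3210. Among the related lists, DESeq2 gave 1 risen other folate enzyme, 1 risen folate transport and storage gene and 1 fallen methionine cycle gene. It also gave 0 fallen transsulfuration genes, 0 risen purine genes, 1 risen glutamate gene and 0 fallen regulators. Without a filter, 1 folate transport and storage gene and 1 glutamate gene were risen and 0 transsulfuration genes fallen. limma-voom gave 1 risen folate transport and storage gene, and RLE scaling 2 fallen regulators. GC and length correction gave 1 risen folate transport and storage gene, 1 risen glutamate gene, 4 fallen methionine cycle genes and 3 fallen regulators. In the fits without 1 library, other folate enzymes had 1 to 2 risen and 0 to 1 fallen. Over the same fits, folate transport and storage had 1 to 2 risen and glycine cleavage 0 to 1 fallen. The methionine cycle had 1 to 3 fallen there, transsulfuration 0 to 1 fallen and glycolysis 0 to 1 risen. Glutamate genes had 1 to 2 risen and regulators 0 to 1 fallen. The cause of these differences was not tested.

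With reads in place of levels per kb, the shares of the sum with over-expression and in the controls were 11.1% and 7.16% for PHGDH, 19.7% and 20.2% for PSAT1, 3.29% and 3.43% for PSPH, 16.9% and 18% for SHMT2, 19.8% and 19.7% for MTHFD2, 12% and 12.2% for MTHFD1L, 8.12% and 6.62% for ALDH1L2, 1.88% and 2.68% for SHMT1 and 7.2% and 10.0% for MTHFD1, since long transcripts then weigh more.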
